A study of Mus musculus with 30 samples.

Results

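Gene expression was compared between old hippocampal cells that used the paternal X chromosome (Xp) and old hippocampal cells that used the maternal X chromosome (Xm), across 22348 of the 22387 genes in the table of the old samples. A gene entered the comparison when its mean over the 10 samples was at least 10 normalised counts, that is, read counts that the authors divided by a size factor for each sample. All mice were female, congenic on C57BL/6J and described as old, and received no treatment named in the sources used here. No age in months was found there for the old mice used for RNA sequencing. They carried Cre-activated nuclear reporters at the Hprt locus of the X chromosome, GFP on the maternal X and tdTomato on the paternal X, and they also carried synapsin 1-Cre, a recombinase transgene that acts in neurons. Each of the 5 Xm and 5 Xp samples held cells from several pooled hippocampi, enriched for neurons on a density gradient and sorted by colour, so that reporter colour and parental origin of the active X cannot be told apart. The series holds 30 samples, of which these 10 were used. Each sample had 23465058 to 27948060 reads in genes, and a read was worth 0.911 to 1.08 normalised counts.

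The label of the samples is neurons, and the marker genes only partly followed it. Of 12 pan-neuronal markers, all were detected in every sample, with a summed level of 24713 to 42910.5 normalised counts in Xm and 14467 to 25578 in Xp. The 10 oligodendrocyte markers summed to 778752 to 1223279 in Xm and 398652 to 637806 in Xp. Per kilobase of annotated exon, the oligodendrocyte markers summed to 147684 to 233866 in Xm, against 4038 to 6611 for the neuronal markers. The 25 microglia markers summed to 5083 to 23907 in Xm and to 195151 to 320303 in Xp, with 24 of the 25 higher in Xp and Sall1 at a log2 fold change of -0.10 (adjusted p = 0.7). The 14 endothelial markers summed to 14906 to 78670.2 in Xm and 117349.8 to 161785 in Xp, and all 14 were higher in Xp. Of the pan-neuronal markers 10 of 12, and of the oligodendrocyte markers 10 of 10, were lower in Xp. No marker of these lists was at 0 in any sample. Ependymal and choroid plexus markers varied widely between samples of a group, from 9065 to 391509 in Xm, with sample 1 highest and sample 5 lowest, and from 76876 to 308968 in Xp. In RNA from pooled cells, fewer cells of a type and less RNA per cell cannot be told apart.

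Neurons, glia and vascular cells share a common set of machines: ribosomes that make protein, proteasomes and lysosomes that remove it, mitochondria that supply energy, and enzymes that build membranes. On top of these each cell type carries its own families of receptors, channels, adhesion molecules and immune sensors. Genes of the common machinery are present in all cell types and usually differ little between them, whereas the families specific to a cell type can differ many-fold. In the following, changes are ordered from the families of the neuron, through structure, energy, protein and lipid metabolism, to immunity, the nucleus and signalling. Each fold change is the log2 ratio of Xp to Xm on the scale of log2(normalised count + 1), a gene is called when the limma adjusted p-value is under 0.05, and levels are given as mean ± SD over 5 samples per group. A log2 fold change given as a value ± an error carries its standard error, and the adjusted p-value of a called gene is printed beside it where it was 0.01 or more, or where the gene is described in full.

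Differences were frequent and mostly small. Of all genes tested, 35.7% were called, with 4111 genes (18.4%) higher and 3875 genes (17.3%) lower in Xp. Values of the 2 groups did not overlap for 25.9% of the genes. Among called genes, 5303 had a log2 fold change under 1 in size, with 2193 higher in Xp (9.81% of genes tested) and 3110 lower (13.9%). The lower genes lay in a narrow band, with a median of -0.68, a 5th percentile of -1.39 and a 95th percentile of -0.26. The higher genes reached further, with a median of 0.93 and a 95th percentile of 3.05. Over a log2 fold change of 2, 679 genes were higher and 29 lower. The median over all genes was -0.011.

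**Figure D1:**
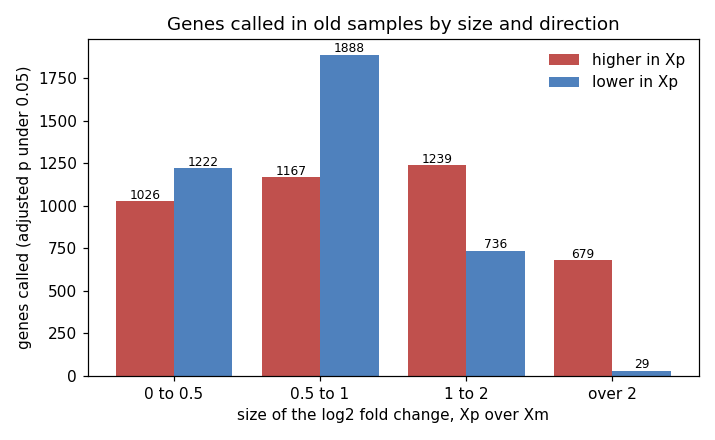
Number of genes called (vertical axis) by size of the log2 fold change between Xp and Xm (horizontal axis), with red bars for genes higher and blue bars for genes lower in Xp, in 5 old samples per group. Between 0.5 and 1 the lower genes were more numerous, 1888 against 1167, and over 2 nearly all called genes were higher, 679 against 29.

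The genes shown here were taken by the smallest adjusted p-values among called genes with a log2 fold change under 1 in size whose groups did not overlap, so that their tightness follows from the choice. Elk4 was at 1134, 1267, 1213, 1107 and 1134 normalised counts in Xm samples 1 to 5 and at 2023, 2093, 2053, 2083 and 2184 in Xp samples 1 to 5. Elk4 encodes an ETS factor that works with serum response factor. Ccnl1 was at 5309, 6033, 6184, 5507 and 5239 normalised counts in Xm samples 1 to 5 and at 11613, 11066, 9676, 11958 and 11536 in Xp samples 1 to 5. Ccnl1 encodes cyclin L1, which takes part in transcription and splicing. Klf6 was at 13994, 12858, 13313, 12986 and 12765 normalised counts in Xm samples 1 to 5 and at 22814, 25985, 29592, 25550.4 and 24146 in Xp samples 1 to 5. Picalm was at 2252, 2293, 2399, 2389 and 2313 normalised counts in Xm samples 1 to 5 and at 4957, 4798, 4662, 4345 and 3744 in Xp samples 1 to 5. Klf6 is a zinc finger transcription factor and Picalm a clathrin adaptor of endocytosis. In each of these 4 genes all Xp samples lay above all Xm samples, with log2 fold changes of 0.83 ± 0.064 for Elk4, 0.98 ± 0.079 for Ccnl1, 0.95 ± 0.078 for Klf6 and 0.94 ± 0.079 for Picalm. Other genes of this rank higher in Xp were Lrrfip1 (0.95), Spty2d1 (0.97), the translation factor gene Eif4a1 (0.78), the ribosome-binding protein gene Rrbp1 (0.80), the polyamine enzyme gene Sat1 (0.97), the small Maf factor gene Mafg (0.82), the lysosomal enzyme gene Gusb (0.93) and the kinase gene Mknk1 (0.83).

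The 12 corresponding genes lower in Xp were of several kinds, among them 2 ubiquitin ligase genes, 2 channel genes and a semaphorin. Rnf43 was at 1431, 1361, 1323, 1601 and 1523 normalised counts in Xm samples 1 to 5 and at 733, 698, 847, 789.9 and 695 in Xp samples 1 to 5. Rnf43 encodes a ubiquitin ligase that removes Wnt receptors from the cell surface. Sema3d was at 2854, 2799, 3054, 3198 and 2867 normalised counts in Xm samples 1 to 5 and at 1532, 1568, 1797, 1502 and 1231 in Xp samples 1 to 5. Sema3d encodes a secreted semaphorin. Phyhipl was at 6348, 6466, 7866, 6809.6 and 7859 normalised counts in Xm samples 1 to 5 and at 4379, 3786, 4153, 3844 and 3412 in Xp samples 1 to 5. In these 3 genes all Xp samples lay below all Xm samples, and the log2 fold changes were -0.94 ± 0.084 for Rnf43, -0.96 ± 0.092 for Sema3d and -0.85 ± 0.090 for Phyhipl. The same rank held Igsf9b (-0.92), Rnf144a (-0.78), Gpsm2 (-0.79), the calcium channel subunit gene Cacnb4 (-0.92), Gas7 (-0.79), the potassium channel gene Kcna2 (-0.87), Scrg1 (-0.94), Rlbp1 (-0.85) and the Rac activator gene Dock3 (-0.86).

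Among called genes with a log2 fold change under 1 in size, those with the largest normalised counts that were higher in Xp were the polyubiquitin gene Ubb at 59520.3 ± 2560.0 in Xm and 71374 ± 4225 in Xp (0.26 ± 0.071, adjusted p = 0.012), Actb (beta-actin) at 42014 ± 5472 in Xm and 59199 ± 8019.9 in Xp (0.49 ± 0.12), Hspa5 (the chaperone BiP of the endoplasmic reticulum) at 34449 ± 11821 in Xm and 64204 ± 7819 in Xp (0.95 ± 0.19), Itm2b at 40878 ± 1916 in Xm and 54921 ± 2173 in Xp (0.43 ± 0.067) and the histone gene H3f3b at 33932 ± 2805 in Xm and 60824 ± 4163 in Xp (0.84 ± 0.081). Those lower in Xp included the myelin genes Mbp at 156346 ± 29517 in Xm and 94379 ± 10978 in Xp (-0.72 ± 0.13) and Cnp at 91152 ± 14667 in Xm and 51404 ± 9082 in Xp (-0.83 ± 0.14), the lipid desaturase gene Scd2 at 94141 ± 12932 in Xm and 56798 ± 7341 in Xp (-0.73 ± 0.11) and the amyloid precursor-like gene Aplp1 at 78253 ± 14836 in Xm and 45977 ± 7057 in Xp (-0.76 ± 0.14).

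Genes of synaptic transmission, from the vesicle to the receptor, were mostly lower in Xp. Of 42 tested genes of the synaptic vesicle and its release, none was higher and 32 were lower (76.2%, against 17.3% of all genes), with a median log2 fold change of -0.92. Their summed level was 111671 ± 15661 in Xm and 65934 ± 9071 in Xp. Syn2 encodes synapsin 2, a protein of the vesicle surface, and Syn2 was at 546, 762, 842, 891 and 845 normalised counts in Xm samples 1 to 5 and at 246, 345, 282, 346 and 249 in Xp samples 1 to 5. All 5 Xp samples lay below all Xm samples (log2 fold change -1.40, SE 0.15, adjusted p = 4.4e-05). The active zone scaffold gene Pclo (-1.03 ± 0.11) and the endocytosis gene Amph (-0.91 ± 0.11) were lower as well. Of 32 genes of the postsynaptic density, 25 were lower and 3 higher, with Dlgap1 (-0.94 ± 0.10), Lrrtm2 (-0.86 ± 0.10) and Dlg2 (-1.02 ± 0.12) lower and Dlgap4 (0.43 ± 0.070), Shank3 (0.82 ± 0.18) and Baiap2 (0.30 ± 0.071) higher. Of the 42 vesicle genes, 5 are also in cell type marker lists. The summed level of the 12 pan-neuronal markers moved in the same direction, and the part of these markers in the synaptic results was not tested.

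Receptor genes for the main transmitters were called lower or not at all. Of 26 glutamate receptor genes, 19 were lower (73.1%, against 17.3% of all genes) and none higher, and of 20 GABA receptor genes, 15 were lower (75%) and none higher. Grin2b was at 674, 959, 896, 1077 and 916 normalised counts in Xm samples 1 to 5 and at 316, 296, 222, 385 and 220.0 in Xp samples 1 to 5. Grin2b encodes a subunit of the NMDA receptor, and its Xp samples all lay below its Xm samples (log2 fold change -1.66, SE 0.17, adjusted p = 2.7e-05). Gabbr2 was at 373, 434, 507, 453 and 538 normalised counts in Xm samples 1 to 5 and at 172, 179.6, 186, 216 and 133 in Xp samples 1 to 5. Gabbr2 encodes a subunit of the metabotropic GABA-B receptor, again without overlap (log2 fold change -1.38, SE 0.15, adjusted p = 3.7e-05). The other leading members were the metabotropic receptor gene Grm5 (-1.25 ± 0.14), the AMPA receptor gene Gria4 (-1.04 ± 0.12), Gabra4 (-1.08 ± 0.15) and Gabrb2 (-1.15 ± 0.18). The receptor genes that were not called included Grm7 at -0.24, Grin2d at -0.33 and Grm6 at 0.13. The glutamate receptor genes together summed to 41072 ± 6063 in Xm and 21363 ± 2675 in Xp. Pan-neuronal markers were lower in 10 of 12, and their part was not tested.

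Called genes of voltage-gated channels were mostly lower, with exceptions. Of 25 calcium channel genes, 15 were lower (60%, against 17.3% of all genes) and none higher, led by Cacna1e (-1.14 ± 0.11). Cacnb4 was at 1188, 1309, 1418, 1467 and 1600.4 normalised counts in Xm samples 1 to 5 and at 698, 693, 839, 792 and 665 in Xp samples 1 to 5, so that the groups did not overlap (-0.92 ± 0.098). Of 13 sodium channel genes, 6 were lower (46.2%), led by Scn8a (-1.15 ± 0.13), Scn2a (-1.14 ± 0.16) and Scn3a (-0.94 ± 0.14), and 2 higher, Scn4b (1.01 ± 0.30, adjusted p = 0.019) and Scn4a (1.33 ± 0.41, adjusted p = 0.025, and 0.057 to 0.067 without Xp 3 or Xp 5). Potassium channels split more widely, with 38 of 83 lower (45.8%) and 10 higher (12%, against 18.4% of all genes). Kcna2 was at 1924, 2348, 2434, 2192 and 2585 normalised counts in Xm samples 1 to 5 and at 1336, 1272, 1245, 1358 and 1062 in Xp samples 1 to 5. Kcna2 encodes a potassium channel of the axon, and its 5 Xp samples were the 5 lowest (-0.87 ± 0.094). Kcna1 (-0.93 ± 0.12) and Kcnc1 (-1.70 ± 0.21) were also lower, whereas Kcnk6 (4.28 ± 0.45), Kcnj2 (0.60 ± 0.10) and Kcnq1 (1.78 ± 0.33) were higher. The same neuronal markers were lower, and their part was not tested.

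Called genes of peptide transmitters and neurotrophins were mostly lower. Of 22 genes for neuropeptides and their processing, 13 were lower (59.1%, against 17.3% of all genes) and 1 higher. The protease gene Pcsk2 (-0.91 ± 0.12), the tachykinin gene Tac1 (-1.14 ± 0.16) and Nxph1 (-1.02 ± 0.14) were lower, and the neurotensin gene Nts was higher (1.05 ± 0.25). Of 13 genes for neurotrophins and their receptors, 5 were lower (38.5%) and 1 higher. Ntrk3 encodes the receptor for neurotrophin 3, and Ntrk3 was at 1241, 1319.9, 1522, 1507 and 1601 normalised counts in Xm samples 1 to 5 and at 698, 658, 754, 716 and 654 in Xp samples 1 to 5. Bdnf encodes brain-derived neurotrophic factor, and Bdnf was at 78.8, 120.2, 166, 138 and 95.6 normalised counts in Xm samples 1 to 5 and at 38.7, 35.9, 28.5, 52.1 and 30.9 in Xp samples 1 to 5. Neither gene overlapped between groups, with log2 fold change -1.04, SE 0.087, adjusted p = 7.7e-06 for Ntrk3 and log2 fold change -1.64, SE 0.24, adjusted p = 2.5e-04 for Bdnf. The GDNF receptor gene Gfra1 was lower (-0.87 ± 0.12) and Ret was higher (1.53 ± 0.35). The part of the neuronal markers, lower in the same samples, was not tested.

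Immediate early genes are switched on within minutes by activity or stress, and they split into members that did not pass the test and members that were higher in Xp. Of 24, 12 were higher (50%, against 18.4% of all genes) and none lower. Npas4 (-0.69), Arc (-0.36), Fos (-0.20), Jun (-0.01) and Egr1 (0.06) were not called, with adjusted p-values of 0.093, 0.059, 0.12, 0.94 and 0.64. However, Npas4 was called with the replicate block (adjusted p = 0.015). DESeq2 called both Npas4 and Arc, and each was also called in some fits that left out a single sample. The stress-responsive factor gene Atf3 was far apart, and Atf3 was at 15539, 12147, 7859, 8287 and 8260.4 normalised counts in Xm samples 1 to 5 and at 32414, 31435, 27943, 33157 and 28317 in Xp samples 1 to 5 (log2 fold change 1.61, SE 0.17, adjusted p = 6.2e-05). No Xp sample of Atf3 came near the highest Xm sample. Ier2 (0.77 ± 0.085) and Junb (0.72 ± 0.094) were higher by smaller amounts. The list summed to 301636 ± 12952 in Xm and 360204 ± 34701 in Xp. In the same samples microglia (24 of 25) and endothelial markers (14 of 14) were higher, and their part was not tested.

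A cyclic AMP response element, TGACGTCA, is a known control sequence of many activity-regulated genes. It was found in the promoter window of 3 of 20 immediate early genes with a window (15%), in 5 of 17 neuropeptide genes (29.4%) and in 3.06% of the 13918 tested genes that had a window. Windows of 300 bases around the start of the gene were taken from RefSeq on GRCm38.p6 and searched on both strands. The windows of a gene lower in Xp, Scg2 (chr1:79439977-79440276, minus strand; secretogranin 2, log2 fold change -0.95), and of a gene higher in Xp, Dusp1 (chr17:26508423-26508722, minus strand; a MAP kinase phosphatase, 0.60), are shown because they hold the same element in capitals and belong to genes that moved in opposite directions.
Scg2: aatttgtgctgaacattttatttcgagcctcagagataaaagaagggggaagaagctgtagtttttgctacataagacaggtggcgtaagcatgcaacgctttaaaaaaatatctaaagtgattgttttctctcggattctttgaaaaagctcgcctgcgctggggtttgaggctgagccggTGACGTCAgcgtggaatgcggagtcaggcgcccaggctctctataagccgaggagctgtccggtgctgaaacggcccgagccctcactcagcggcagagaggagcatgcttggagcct
Dusp1: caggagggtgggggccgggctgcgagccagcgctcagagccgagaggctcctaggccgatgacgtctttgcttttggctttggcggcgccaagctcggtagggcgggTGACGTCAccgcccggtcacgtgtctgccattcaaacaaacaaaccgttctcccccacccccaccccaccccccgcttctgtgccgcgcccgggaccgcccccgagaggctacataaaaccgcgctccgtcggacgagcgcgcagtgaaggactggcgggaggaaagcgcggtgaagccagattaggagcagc

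Adhesion and guidance molecules, which place axons and hold cells together, differed by family. All 12 called members of the 17 contactins and teneurins were lower (70.6% of the 17, against 17.3% of all genes). Tenm1 was at 778, 867, 899, 962 and 1013 normalised counts in Xm samples 1 to 5 and at 384, 367, 459, 407 and 316 in Xp samples 1 to 5, without overlap (log2 fold change -1.23, SE 0.11, adjusted p = 1.3e-05). Tenm1 is an X-linked teneurin of the synaptic cleft. Tenm2 (-1.25 ± 0.13) and Cntn1 (-0.90 ± 0.099) were also lower. Of 70 protocadherins, 32 were lower (45.7%) and 3 higher, with Pcdh17 (-0.89 ± 0.11), Pcdh15 (-1.03 ± 0.13) and Pcdh10 (-0.89 ± 0.12) lower and Pcdh1 (0.87 ± 0.16), Pcdh12 (1.27 ± 0.28) and Pcdhgb2 (0.33 ± 0.11, adjusted p = 0.038, and 0.061 to 0.089 without Xm 1, Xm 2, Xm 5, Xp 2, Xp 3, Xp 4 or Xp 5) higher. Of 23 cadherins, 13 were lower (56.5%), among them Cdh11 (-0.59 ± 0.069), Cdh19 (-0.71 ± 0.089) and Cdh20 (-0.90 ± 0.12), and 3 higher, Cdh23 (1.92 ± 0.15), the vascular Cdh5 (2.26 ± 0.34) and Cdh17 (1.54 ± 0.45, adjusted p = 0.018). Of 18 genes of the Slit, Robo and netrin systems, 9 were lower (50%), led by Flrt3 (-0.72 ± 0.085), Unc5c (-0.95 ± 0.13) and Slit1 (-1.36 ± 0.19), and Ntn4 was higher (0.59 ± 0.16, adjusted p = 0.013). Neuronal markers were lower in the same samples, and their part was not tested.

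Semaphorins and Eph receptors did not move as a block. Of 31 semaphorins, plexins and neuropilins, 10 were higher (32.3%, against 18.4% of all genes) and 11 lower (35.5%, against 17.3%). Nrp2 was at 1321, 1214, 1236, 1229 and 1201 normalised counts in Xm samples 1 to 5 and at 2556, 3032, 2078, 1963 and 2314 in Xp samples 1 to 5 (0.93 ± 0.11). Nrp2, a receptor for semaphorins and vascular growth factors, was thus higher in every Xp sample than in any Xm sample. Sema6b (0.92 ± 0.13) and Sema3g (2.25 ± 0.32) were higher, and Plxna3 (-0.74 ± 0.095) and Sema5b (-1.05 ± 0.15) were lower together with Sema3d. Of 22 ephrins and Eph receptors, 5 were higher (22.7%), led by Ephb4 (1.23 ± 0.20), Epha2 (2.66 ± 0.43) and Efnb1 (0.71 ± 0.14), and 9 lower, led by Epha6 (-2.03 ± 0.28), Ephb6 (-0.78 ± 0.13) and Epha7 (-0.84 ± 0.16). Endothelial markers (14 of 14 higher) and neuronal markers (10 of 12 lower) moved in the same samples, and their part was not tested.

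Integrins, the receptors for the extracellular matrix, and laminins had more members higher than lower, and collagens were close to the background. Of 31 integrin genes, 12 were higher (38.7%, against 18.4% of all genes) and 2 lower, with Itgam (4.14 ± 0.35), Itgb5 (1.10 ± 0.11) and Itga6 (1.20 ± 0.13) higher and Itgb8 (-0.77 ± 0.097) and Itgb4 (-0.47 ± 0.13, adjusted p = 0.013) lower. Of 13 laminins and nidogens of the basement membrane, 9 were higher and none lower, led by Lama3 (0.93 ± 0.14), Lama4 (0.87 ± 0.17) and Lamb2 (1.45 ± 0.30). Of 44 collagens, 11 were higher (25%) and 6 lower (13.6%, against 17.3% of all genes), 27 were not called, and the sums of the groups overlapped. The basement membrane collagens Col4a1 (1.57 ± 0.27) and Col4a2 (1.45 ± 0.22) were higher with Col15a1 (1.12 ± 0.22), and Col11a2 (-0.77 ± 0.098), Col16a1 (-0.47 ± 0.10) and Col11a1 (-0.60 ± 0.17, adjusted p = 0.014) were lower. The collagen counts rested on single samples, with 7 higher when any one of Xm 3, Xm 4, Xp 4 or Xp 5 was left out, and 3 lower without Xm 5. All 14 endothelial markers and 6 of 9 pericyte markers were higher in Xp as well, and their part in the matrix results was not tested.

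Genes of microtubules had more members lower than higher. Microtubule-associated proteins and neurofilaments had 16 of 23 members lower (69.6%, against 17.3% of all genes) and 2 higher (8.7%, against 18.4%). Of these 23 genes, 5 are also cell type markers. The tau gene Mapt was lower, and Mapt was at 7905, 8593, 7646, 7379 and 10722 normalised counts in Xm samples 1 to 5 and at 4995, 4858, 5221, 4407 and 3668 in Xp samples 1 to 5 (-0.87 ± 0.12). The Xm and Xp ranges of Mapt did not meet. Dclk1 (-0.84 ± 0.11) and Dcx (-1.12 ± 0.16) were lower, and Mapre1 (0.50 ± 0.079) and Map4 (0.39 ± 0.062) higher. Of 38 kinesins, 11 were lower (28.9%), with Kif1a (-0.73 ± 0.090), Kif21a (-0.76 ± 0.097) and Kif3a (-0.72 ± 0.10) leading. Another 4 were higher (10.5%, under the 18.4% of all genes), with Kif23 (1.94 ± 0.29), Kif26a (1.45 ± 0.26) and Kif5b (0.38 ± 0.087) leading. Of 22 dyneins and dynactins, motors of the opposite direction, none was called higher and 4 were lower (18.2%, close to the 17.3% of all genes), among them Dync1li2 (-0.35 ± 0.070), Dctn2 (-0.25 ± 0.059) and Dync2h1 (-0.29 ± 0.079, adjusted p = 0.012). Of 24 tubulin genes, 7 were lower (29.2%, against 17.3% of all genes) and 4 higher (16.7%, near the 18.4% of all genes). Pan-neuronal markers were lower in 10 of 12 in the same samples, and their part in the microtubule values was not tested.

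Actin nucleation had most of its members higher. Of 29 genes of the Arp2/3 complex and its activators, 17 were higher (58.6%, against 18.4% of all genes) and 6 lower, and the sum over the list was 97629 ± 1950.2 in Xm and 129706 ± 8772 in Xp. Coro1a (2.19 ± 0.15) and Wasf2 (1.20 ± 0.098) led the higher members, with the Wiskott-Aldrich syndrome gene of blood cells at a log2 fold change of 3.14 (adjusted p = 2.8e-06). Coro1a and the Wiskott-Aldrich gene are known from leukocytes, and microglia markers were higher in 24 of 25, and their part in these values was not tested. Of 47 myosins, 12 were higher (25.5%, against 18.4% of all genes), 6 were lower (12.8%, against 17.3%) and 29 were not called. Myo1f (2.78 ± 0.18), Myh9 (1.54 ± 0.15) and Myo7b (0.89 ± 0.14) led the higher myosins. Myo5a (-0.64 ± 0.099), Myo16 (-0.90 ± 0.17) and Myo6 (-0.49 ± 0.097) led the lower ones.

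Within several families, closely related genes were called in opposite directions. The following 12 pairs were chosen after their values were seen and stand as a description. Pfn1 was at 4912, 4916, 4625, 4255 and 4073 normalised counts in Xm samples 1 to 5 and at 8244, 7949, 8000.1, 7331 and 7292 in Xp samples 1 to 5. Pfn2 was at 6479, 5396, 6431, 5980.1 and 6163 normalised counts in Xm samples 1 to 5 and at 4723, 3699, 3732, 3846 and 3407 in Xp samples 1 to 5. Both genes encode profilin, which feeds actin to growing filaments, and Pfn1 was higher (0.77 ± 0.074) while Pfn2 was lower (-0.66 ± 0.090), each without overlap. Ptbp1 was at 3372, 2576, 2782, 2367 and 2415 normalised counts in Xm samples 1 to 5 and at 4825, 4301, 4651, 4209 and 4389 in Xp samples 1 to 5. Ptbp2 was at 1633, 1737, 2088, 2114 and 1970.3 normalised counts in Xm samples 1 to 5 and at 1412, 1274, 1416, 1200.0 and 1151 in Xp samples 1 to 5. Ptbp1 encodes the splicing repressor of most cells and Ptbp2 its neuronal relative, and they differed in the same manner (0.74 ± 0.095 and -0.56 ± 0.094). Tubb6 was at 1319.9, 1192, 777, 653 and 563 normalised counts in Xm samples 1 to 5 and at 3293, 2954, 2834, 2594 and 2921 in Xp samples 1 to 5. Tubb3 was at 2069, 1881, 2311, 2739.5 and 2646 normalised counts in Xm samples 1 to 5 and at 1181, 1150.4, 1373, 1489 and 1069.9 in Xp samples 1 to 5. Tubb6 encodes a widely used beta-tubulin (1.77 ± 0.22) and Tubb3 the neuronal one (-0.89 ± 0.12). Tubb3 is itself one of the pan-neuronal markers. The other pairs were Cyfip1 (1.01) and Cyfip2 (-0.84) of the WAVE complex, Wasf2 and Wasf3 (-0.49) of the same complex, Arpc1b (1.56) and Arpc1a (-0.40) of Arp2/3, the initiation factors Eif1 (0.48) and Eif1b (-0.39), the hypusinated factors Eif5a (0.53) and Eif5a2 (-0.49), the phosphofructokinases Pfkl (0.38) and Pfkm (-0.47), Rab3d (1.23) and Rab3c (-1.39), Dlgap4 and Dlgap1, and the adenylyl cyclases Adcy7 (1.96) and Adcy1 (-1.56). Across the same samples neuronal markers (10 of 12) were lower and microglia (24 of 25) and endothelial markers (14 of 14) higher. The part of these markers in the pairs was not tested.

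**Figure D2:**
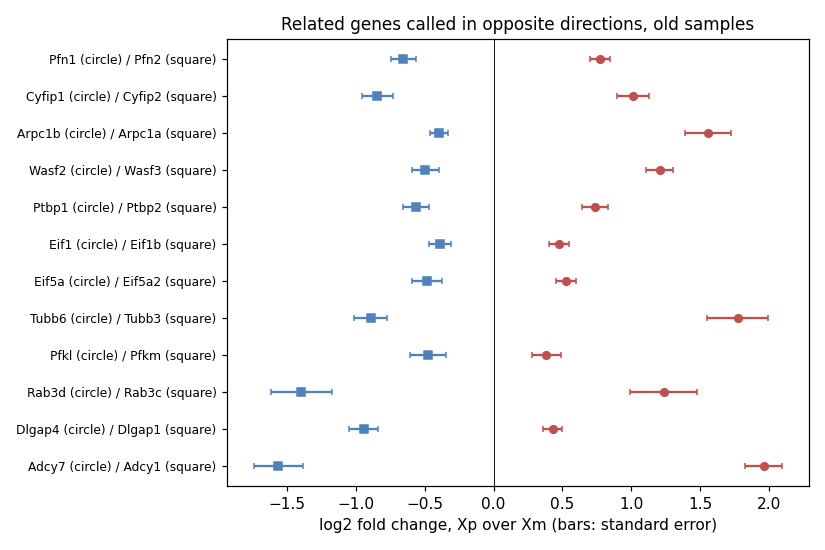
Log2 fold change of Xp over Xm (horizontal axis, bars are standard errors) for 12 pairs of related genes, with a red circle for the first and a blue square for the second gene of each pair. Every circle lies to the right of 0 and every square to the left, from 0.38 and -0.47 for Pfkl and Pfkm to 1.96 and -1.56 for Adcy7 and Adcy1.

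Few genes of mitochondrial respiration were called. Of 36 nuclear genes of respiratory complex I, 1 was lower and none higher, and the median log2 fold change was -0.03. The gene called was Ndufs1, and Ndufs1 was at 5255, 4409.7, 4560.3, 4649.6 and 4453 normalised counts in Xm samples 1 to 5 and at 4431, 4022, 3967, 3986 and 3696 in Xp samples 1 to 5. Its groups overlapped and the difference was small (-0.21 ± 0.072, adjusted p = 0.034, and 0.057 to 0.071 without Xm 1, Xm 3, Xm 4, Xp 2, Xp 3, Xp 4 or Xp 5). None of 13 genes of complexes II and III and none of 19 genes of the tricarboxylic acid cycle was called, 1 of 19 ATP synthase genes was lower (Atp5s, -0.32 ± 0.10, adjusted p = 0.03, and 0.053 to 0.065 without Xm 2, Xp 2, Xp 3 or Xp 4), and 3 of 17 complex IV genes were higher, Cox4i2 (1.26 ± 0.27), Cox6a2 (1.26 ± 0.36, adjusted p = 0.015) and Cox7a2l (0.28 ± 0.087, adjusted p = 0.022, and 0.054 to 0.061 without Xm 4 or Xm 5). Before adjustment, limma p-values under 0.05 were found for 0 of the 13 and 2 of the 19, and edgeR and DESeq2 called 0 and 0 of the 13 and 2 and 1 of the 19. The shares called lay under the 35.7% of all genes in each of these lists. None of the 13 protein-coding genes of the mitochondrial genome was called by limma or edgeR, 6 had an unadjusted limma p-value under 0.05 and DESeq2 called 2. Of the 13, 11 had negative values, and the sum was 445807, 557506, 455272, 563766 and 658542 in Xm samples 1 to 5 against 447619, 454179.8, 407929, 450528 and 456390.5 in Xp samples 1 to 5. The motif GCGCA, any base and GCGC, the binding sequence of nuclear respiratory factor 1, was present in the promoter windows of 18 of 67 respiratory genes (26.9%) against 9.07% of all genes with a window, and none of those 18 genes was called.

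Glycolysis and antioxidant defence had members higher in Xp. Of 22 glycolytic genes and transporters, 7 were higher (31.8%, against 18.4% of all genes) and 2 lower (9.09%, against 17.3%). Hexokinase 2 (Hk2, 1.91 ± 0.15), the monocarboxylate transporter Slc16a3 (1.45 ± 0.13) and the glucose transporter Slc2a1 (1.58 ± 0.25), which is also an endothelial marker, were higher, and the neuronal enolase Eno2 (-0.77 ± 0.12) and the muscle-type phosphofructokinase Pfkm (-0.47 ± 0.13, adjusted p = 0.014) were lower. Of 28 antioxidant genes, 12 were higher (42.9%) and 1 lower (3.57%). The regulator Nfe2l2 (1.32 ± 0.13), the thioredoxin reductase Txnrd1 (1.24 ± 0.15) and Gpx1 (1.81 ± 0.24) were higher, and the glutathione synthetase Gss was lower (-0.34 ± 0.095, adjusted p = 0.015). Microglia markers (24 of 25) and endothelial markers (14 of 14) were higher in the same samples, and their part was not tested.

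A small change in one direction was found across most cytosolic ribosomal proteins. Of 83 genes tested, 72 were higher in Xp (86.7%, against 18.4% of all genes) and none was lower. The changes were small, with a median log2 fold change of 0.41 and a highest value of 0.89. Summed over the list, Xm samples 1 to 5 held 179669, 159557, 157353, 153781 and 143072 normalised counts and Xp samples 1 to 5 held 223862, 205573, 215845, 197556 and 232572. The lowest Xp sample thus lay above the highest Xm sample. Rps25 was at 2163, 2044, 2142, 1970.4 and 1927 normalised counts in Xm samples 1 to 5 and at 2941, 2939, 3108, 2934 and 3246 in Xp samples 1 to 5. Rpl10 was at 3357, 3088, 2847, 2680.2 and 2627 normalised counts in Xm samples 1 to 5 and at 5402, 4692, 4565, 4344 and 5213 in Xp samples 1 to 5. Rps25 is a protein of the small subunit and the X-linked Rpl10 of the large subunit, and neither overlapped between groups (log2 fold change 0.57, SE 0.063, adjusted p = 5.0e-05 for Rps25, and log2 fold change 0.73, SE 0.088, adjusted p = 8.2e-05 for Rpl10). Rps19 was close behind (0.75 ± 0.091). The 11 members that were not called included Rpl22 (0.02), Rpl13 (0.05) and Rpl24 (0.12), and the list holds a few copies such as Rpl3l and Rpl32l, at -0.30 and -0.29. Ribosomal protein genes have many processed copies in the genome, and reads that map to several places were not counted, so single members are uncertain. The number higher was 72 under every other scaling, filter, pseudocount, block or tool tried, and lay between 66 and 74 when single samples were left out. In the same Xp samples microglia markers (24 of 25) and endothelial markers (14 of 14) were higher, and neuronal (10 of 12) and oligodendrocyte markers (10 of 10) were lower, and their part in the ribosomal values was not tested.

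The mitochondrial ribosome did not share this change. Of 78 mitochondrial ribosomal protein genes, 1 was higher (Mrps18b, 0.36 ± 0.12, adjusted p = 0.032, and 0.057 to 0.076 without Xm 2, Xm 3, Xm 5, Xp 1, Xp 3 or Xp 4) and 7 were lower (8.97%, against 17.3% of all genes), among them Mrpl40 (-0.30 ± 0.079, adjusted p = 0.01), Mrpl30 (-0.29 ± 0.081, adjusted p = 0.013) and Mrpl48 (-0.21 ± 0.064, adjusted p = 0.022, and 0.051 to 0.06 without Xm 4, Xm 5 or Xp 2), and the median was -0.05. The 7 lower members fell to 3 without Xm sample 4 and to 4 without Xm sample 3, Xp sample 2 or Xp sample 4. Translation initiation factors were partly higher, with 23 of 56 higher (41.1%, against 18.4% of all genes) and 3 lower. Eif4a1 was at 5203, 4849.6, 5684, 5738 and 5127 normalised counts in Xm samples 1 to 5 and at 9073, 9425, 9115, 8959 and 9062 in Xp samples 1 to 5. Eif4a1 encodes the helicase that opens mRNA for the ribosome, and its groups were far apart relative to their spread (log2 fold change 0.78, SE 0.066, adjusted p = 7.9e-06). Reads of its processed copy Eif4a-ps4 rose in the same way (0.87 ± 0.12), and the 2 may not be separable. Eif5 (0.73 ± 0.083) was higher and Eif1b (-0.39 ± 0.082), Eif5a2 (-0.49 ± 0.11) and the X-linked Eif1ax (-0.27 ± 0.081, adjusted p = 0.019, and 0.053 without Xm 4) were lower. Since microglia (24 of 25) and endothelial markers (14 of 14) were higher in the same samples, their part is open and was not tested. Of 20 aminoacyl-tRNA synthetases, 4 were higher, including Cars (0.40 ± 0.067), Nars (0.39 ± 0.081) and Rars (0.34 ± 0.076), and 3 lower, Dars (-0.26 ± 0.066), Sars (-0.24 ± 0.076, adjusted p = 0.024, and 0.053 to 0.064 without Xm 3, Xm 4, Xp 1 or Xp 5) and Yars (-0.21 ± 0.073, adjusted p = 0.043, and 0.056 to 0.091 without Xm 2, Xm 3, Xm 4, Xm 5, Xp 1, Xp 2, Xp 4 or Xp 5, and 0.059 with the replicate block).

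**Figure D3:**
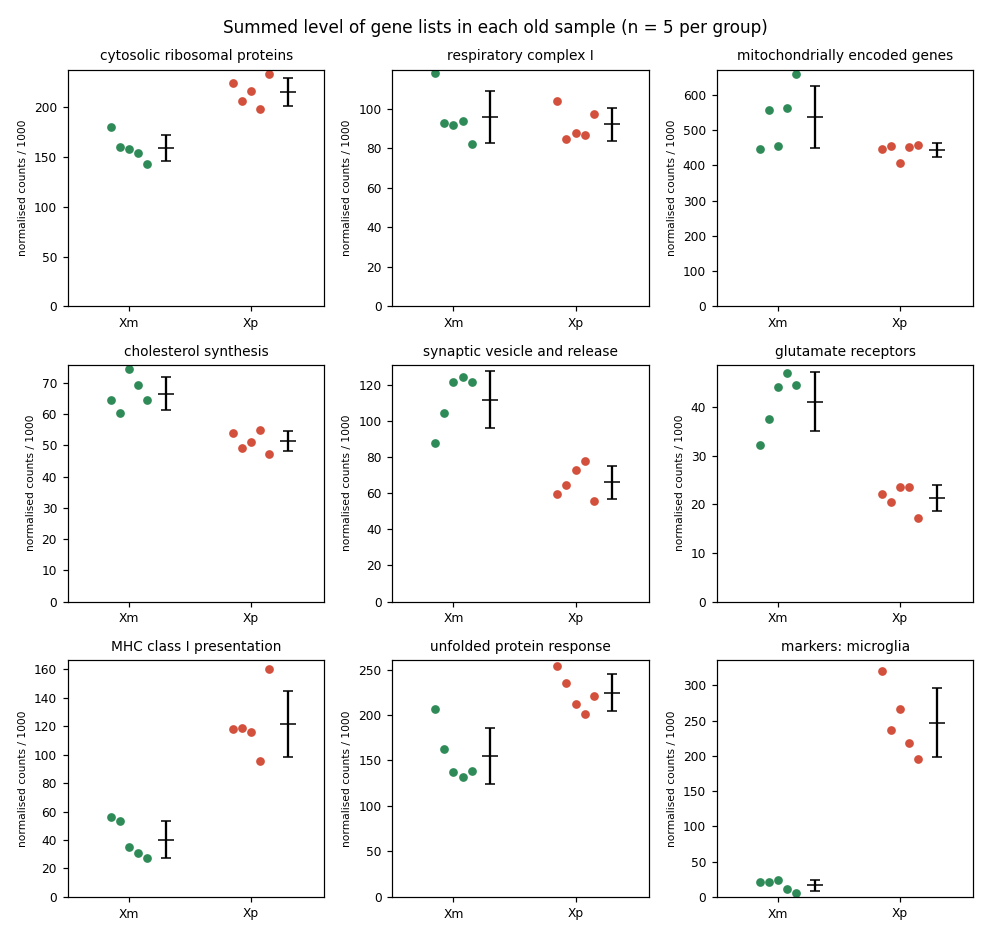
Summed level of 8 gene lists and of the microglia markers (vertical axes, normalised counts divided by 1000) in each of 5 Xm (green) and 5 Xp (red) old samples, with the mean and SD beside the points. Ribosomal proteins, MHC class I and microglia markers were higher in all Xp samples than in any Xm sample, cholesterol synthesis and synaptic lists were lower, and the points of respiratory complex I overlap.

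The unfolded protein response, through which cells adjust the endoplasmic reticulum to its load, was higher in Xp in part. Of its 24 genes, 13 were higher (54.2%, against 18.4% of all genes) and 1 lower. Atf4 was at 2265, 2064, 2214, 2211 and 2323 normalised counts in Xm samples 1 to 5 and at 3455, 3357, 3729, 3739 and 3800.2 in Xp samples 1 to 5. Atf4 encodes the transcription factor of the integrated stress response, and all Xp samples lay above all Xm samples (log2 fold change 0.71, SE 0.064, adjusted p = 1.3e-05). Edem1 (1.74 ± 0.13) and the phosphatase subunit gene Ppp1r15a (1.03 ± 0.088) were higher, and Sel1l was lower (-0.23 ± 0.081, adjusted p = 0.038, and 0.064 to 0.092 without Xm 1, Xm 2, Xm 5, Xp 2, Xp 4 or Xp 5). The sensor gene Eif2ak3 (-0.31) and the chaperone gene Canx (-0.08) were not called. Heat-shock proteins and chaperones were near the background, with 20 of 91 higher (22%) and 8 lower (8.79%, against 17.3% of all genes), with Dnajb13 (1.28 ± 0.15), Hspa4 (0.55 ± 0.066) and Dnajb9 (0.49 ± 0.093) leading the first and Dnajc18 (-0.42 ± 0.075), Dnajb2 (-0.52 ± 0.096) and Dnajb14 (-0.43 ± 0.096) the second. The heat-inducible Hspa1a (0.28) and Hspa1b (0.24) were not called (adjusted p = 0.53 and 0.68). The part of the microglia and endothelial markers, higher in the same samples, was not tested.

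Proteasome genes that were called were all higher. Of 48 genes, 12 were higher (25%, against 18.4% of all genes) and none lower, and the median over the list was 0.10. Genes of the immunoproteasome, which replaces the standard catalytic subunits under interferon, were among the highest, with Psmb10 (0.81 ± 0.12), Psmb8 (1.96 ± 0.28), Psmb9 (1.64 ± 0.31), Psme1 (0.96 ± 0.18) and Psme2 (0.76 ± 0.12) higher, while the standard catalytic subunits Psmb5 (-0.16), Psmb6 (0.09) and Psmb7 (-0.07) were not called. Psma8 was also higher (2.18 ± 0.24). The part of the microglia markers (24 of 25 higher) and endothelial markers (14 of 14 higher) in the proteasome values was not tested. Ubiquitin ligases of the cullin and RING families were called at shares near those of all genes, with 52 of 217 higher (24%, against 18.4%), including Rnf19b (1.40 ± 0.12), Rnf2 (0.68 ± 0.070) and Rnf144b (1.08 ± 0.12), and 42 lower (19.4%, against 17.3%), including Rnf43, Rnf144a and Rnf112 (-1.27 ± 0.15).

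Lysosomal enzymes had many members higher. Of 44 cathepsins and lysosomal hydrolases, 21 were higher (47.7%, against 18.4% of all genes) and 4 lower. Grn was at 3678, 3439, 3467, 2335 and 2837 normalised counts in Xm samples 1 to 5 and at 11437, 8978, 9856, 9321 and 9131 in Xp samples 1 to 5. Grn encodes progranulin, and its lowest Xp sample was above its highest Xm sample (log2 fold change 1.64, SE 0.12, adjusted p = 3.6e-06). Ctsz (1.65 ± 0.13) and Gusb (0.93 ± 0.080) were higher too, and Arsb (-0.52 ± 0.077), Gm2a (-0.44 ± 0.079), Npc1 (-0.48 ± 0.11) and 1 more gene were lower. The V-ATPase, the proton pump that acidifies the lysosome, had no member called higher among 21 and 3 lower (14.3%, under the 17.3% of all genes), at a median of -0.06 and with overlapping sums. The 3 were Atp6v0e2 (-0.67 ± 0.10), Atp6v1g2 (-1.09 ± 0.18) and Atp6ap1l (-0.62 ± 0.20, adjusted p = 0.026, and 0.053 to 0.066 without Xm 2, Xm 3, Xm 4, Xp 1 or Xp 4). The motif TCACGTGA, bound by factors of the TFEB family, was found for 3 of 15 V-ATPase genes (20%), 4 of 36 hydrolase genes (11.1%) and 1.78% of all genes with a window. Autophagy genes were called at shares not far from those of all genes, with 10 of 36 higher (27.8%) and 6 lower (16.7%). Sqstm1 was at 28026, 25161, 22991, 21427 and 22066 normalised counts in Xm samples 1 to 5 and at 48479, 53223, 43529.5, 40550.5 and 41563 in Xp samples 1 to 5. Sqstm1 encodes the cargo receptor p62 and did not overlap between groups (0.93 ± 0.10). Tfe3 (1.15 ± 0.088) and Atg2a (0.35 ± 0.073) were higher, and Atg4c (-0.56 ± 0.097), Atg9a (-0.35 ± 0.071) and Nbr1 (-0.29 ± 0.069) lower. Without Xm sample 3 or Xm sample 5, 6 autophagy genes remained higher by count, and without Xm sample 4, 3 were lower. The hydrolase list shares genes such as Ctss with the microglia markers, and the part of those cells in the lysosomal results was not tested.

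Cholesterol synthesis was lower in Xp at most of its steps. Of 23 genes tested, 15 were lower (65.2%, against 17.3% of all genes) and none was higher, with a median log2 fold change of -0.40 and a range from -0.60 to 0.12. The sum was 64482, 60246, 74358, 69170.5 and 64324 normalised counts in Xm samples 1 to 5 and 54069, 49270.0, 51032, 54829.9 and 47266 in Xp samples 1 to 5, so that the groups did not overlap. Hmgcs1 was at 9352, 8603, 9428, 9301 and 10022 normalised counts in Xm samples 1 to 5 and at 7510.0, 6763, 6367, 7181 and 6809 in Xp samples 1 to 5. Hmgcs1 makes HMG-CoA at the start of the pathway (log2 fold change -0.43, SE 0.069, adjusted p = 4.6e-04). Lss was at 1970.0, 2018, 2285, 2165 and 2117 normalised counts in Xm samples 1 to 5 and at 1490.4, 1416, 1538, 1610.2 and 1356 in Xp samples 1 to 5. Lss closes the sterol rings (log2 fold change -0.51, SE 0.071, adjusted p = 1.9e-04). Neither gene overlapped between groups. Sc5d (-0.51 ± 0.082) was lower in addition, and so were Sqle (-0.47 ± 0.083) and Dhcr7 (-0.60 ± 0.11), named after their values were seen. The regulator gene Srebf2 (-0.08, adjusted p = 0.38) was not called. Oligodendrocyte markers, whose cells make much of the brain's cholesterol, were lower in 10 of 10, and their part was not tested.

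The sterol regulatory element TCACCCCAC was searched in the windows of 17 of the 23 genes and matched in 1, Hmgcs1 (5.88%, against 0.697% of all genes with a window). That window (chr13:119690101-119690400, plus strand, GRCm38.p6, RefSeq) is shown with the match in capitals.
Hmgcs1: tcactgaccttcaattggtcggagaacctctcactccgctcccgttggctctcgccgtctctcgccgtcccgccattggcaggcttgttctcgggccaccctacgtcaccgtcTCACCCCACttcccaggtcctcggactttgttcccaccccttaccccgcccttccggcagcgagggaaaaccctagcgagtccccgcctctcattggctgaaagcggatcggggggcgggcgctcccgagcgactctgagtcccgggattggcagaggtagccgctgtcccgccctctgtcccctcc

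Myelin and lipid transport differed from each other. Of 25 genes for myelin proteins and myelin lipids, 24 were lower (96.0%, against 17.3% of all genes), within a narrow range of -0.96 to -0.30, and the leading members were Gjc3 (-0.91 ± 0.11), Bcas1 (-0.81 ± 0.12) and Plekhb1 (-0.72 ± 0.11). The myelin list shares 10 genes with the cell type markers. Of 24 genes of lipoproteins and lipid efflux, 8 were higher (33.3%, against 18.4%) and 6 lower (25%, against 17.3%). Plin2 (0.95 ± 0.12), which coats lipid droplets, and Scarb1 (0.89 ± 0.12) were higher, and the fatty acid carriers Fabp7 (-0.88 ± 0.13) and Fabp5 (-0.66 ± 0.11) and the receptor Vldlr (-0.63 ± 0.10) were lower. The apolipoprotein genes Apoe (0.20) and Clu (-0.15) were not called (adjusted p = 0.14 and 0.6).

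**Figure D4:**
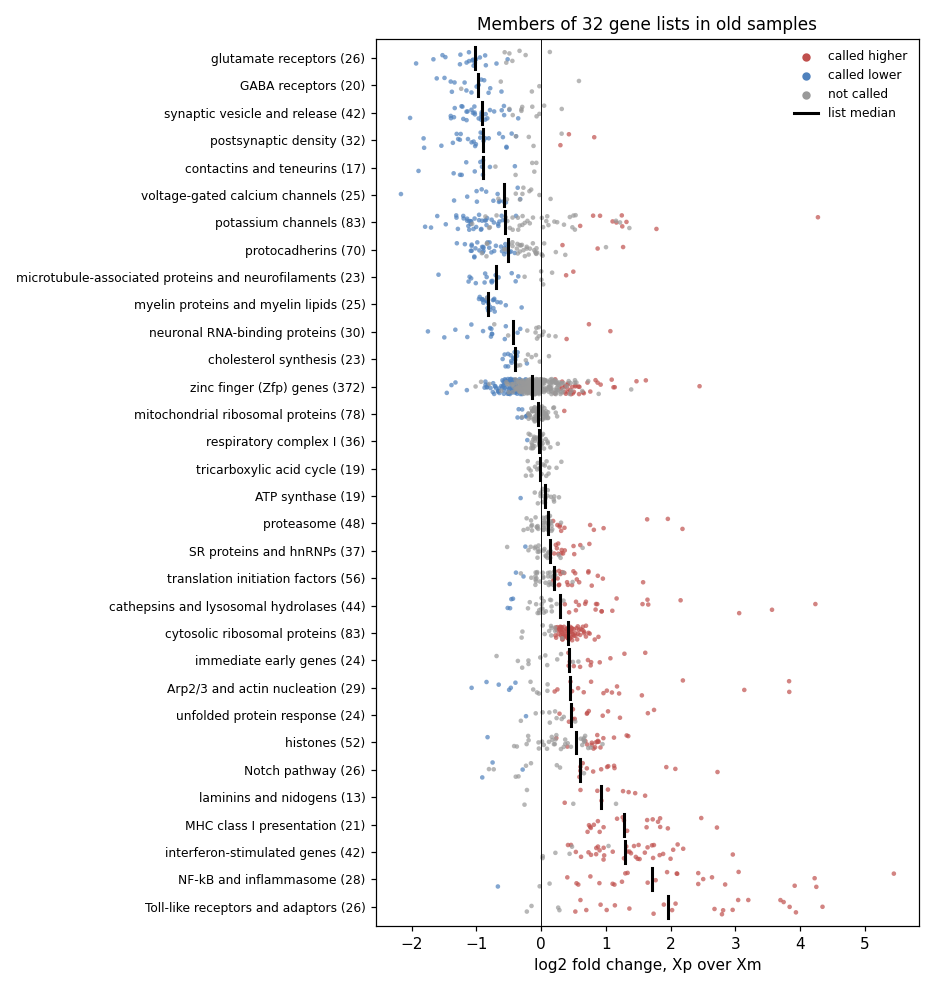
Log2 fold change of Xp over Xm (horizontal axis) for the members of 32 gene lists (rows, number of members in brackets), in red where called higher, blue where called lower and grey where not called, with a black bar at the list median. The medians of the synaptic, receptor and channel lists lie to the left of 0, respiratory complex I, the tricarboxylic acid cycle and ATP synthase lie near 0 with 2 calls in all, ribosomal proteins have a median of 0.41, and the medians of the immune lists lie to the right.

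Antigen presentation by class I molecules was higher in all its tested genes. All 21 genes of MHC class I presentation were higher in Xp (100%, against 18.4% of all genes), with a median of 1.28. None of the 21 overlapped between groups, whereas 13.9% of all genes were higher in Xp without overlap. H2-D1 was at 20782, 20539, 12632, 11318 and 11101 normalised counts in Xm samples 1 to 5 and at 47024, 49526, 47389.5, 38469 and 62599.8 in Xp samples 1 to 5. H2-D1 encodes a classical class I molecule, and its lowest Xp sample was above its highest Xm sample (log2 fold change 1.72, SE 0.21, adjusted p = 1.3e-04). H2-M3 (1.33 ± 0.16) and H2-Q4 (1.81 ± 0.26) followed, although class I genes are close copies and reads could be split among them. Of 13 class II genes, 8 were higher (61.5%), led by Ifi30 (1.12 ± 0.11), H2-DMa (1.61 ± 0.16) and H2-Ob (2.89 ± 0.31), while the classical chains H2-Aa (1.40, adjusted p = 0.14), H2-Ab1 (1.40, 0.13) and H2-Eb1 (1.35, 0.15) did not pass the test. In the same samples 24 of 25 microglia markers and 14 of 14 endothelial markers were higher. Their part in the values of antigen presentation was not tested.

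Interferon-stimulated genes, sensors and inflammatory regulators were higher as well. Of 42 interferon-stimulated genes, 36 were higher (85.7%, against 18.4% of all genes) and none lower, at a median of 1.30. Isg15 was at 114, 186, 88.6, 84.7 and 53.6 normalised counts in Xm samples 1 to 5 and at 377, 365, 332, 280.4 and 476 in Xp samples 1 to 5. Isg15, a ubiquitin-like modifier, overlapped in no sample (log2 fold change 1.88, SE 0.27, adjusted p = 3.0e-04). The RNA sensors Dhx58 (1.36 ± 0.14) and Ifih1 (1.74 ± 0.21) and the antiviral gene Rsad2 (1.43 ± 0.19) were higher. The members that were not called included Ifit2 (0.02) and Mx2 (0.02). Of 28 genes of NF-kB and the inflammasome, 25 were higher and 1 was lower, Il18 (-0.67 ± 0.13). Rel was at 1350.4, 1097, 1116, 1021 and 867 normalised counts in Xm samples 1 to 5 and at 4967, 3602, 4566, 3988 and 3818 in Xp samples 1 to 5, and the groups did not overlap (log2 fold change 1.95, SE 0.12, adjusted p = 1.2e-06). Nfkb2 (1.65 ± 0.12) and Aim2 (2.43 ± 0.19) were higher. Of 26 Toll-like receptors and adaptors, 22 were higher, led by Cd180 (2.79 ± 0.24), Tlr13 (3.84 ± 0.32) and Myd88 (1.74 ± 0.17). The 25 microglia markers also summed higher, at 5083 to 23907 normalised counts in Xm and 195151 to 320303 in Xp, and their part in these results was not tested.

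The interferon-stimulated response element was searched as GAAA, any 2 bases and GAAA, on both strands. It was present in the promoter windows of 18 of 30 interferon-stimulated genes (60.0%), 5 of 17 class I presentation genes (29.4%) and 3.74% of all genes with a window, and 17 of the 18 interferon-stimulated genes with it were higher in Xp. The windows of Isg15 (chr4:156200769-156201068, minus strand) and of the class I light chain gene B2m (chr2:122147437-122147736, plus strand; log2 fold change 1.84 ± 0.26) are shown, from RefSeq on GRCm38.p6, with matches in capitals. Isg15 has 3 matches, which run into each other, and B2m has 1.
Isg15: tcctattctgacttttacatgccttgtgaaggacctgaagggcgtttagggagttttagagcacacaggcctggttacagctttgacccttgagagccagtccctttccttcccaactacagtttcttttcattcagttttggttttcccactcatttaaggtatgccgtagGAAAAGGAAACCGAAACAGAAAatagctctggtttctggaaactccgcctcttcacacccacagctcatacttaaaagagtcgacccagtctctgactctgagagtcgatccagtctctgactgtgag
B2m: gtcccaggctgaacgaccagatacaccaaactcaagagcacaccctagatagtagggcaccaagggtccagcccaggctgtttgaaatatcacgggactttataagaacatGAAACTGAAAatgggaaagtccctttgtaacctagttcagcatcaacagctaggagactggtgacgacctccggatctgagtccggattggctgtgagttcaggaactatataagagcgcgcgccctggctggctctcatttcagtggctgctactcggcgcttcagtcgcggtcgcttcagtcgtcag

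Chemokines and complement were higher in part. Of 50 chemokine and receptor genes, 27 were higher (54.0%, against 18.4% of all genes), with Ccr1 (2.74 ± 0.27), Ccr6 (3.38 ± 0.34) and Ccl24 (4.64 ± 0.55) leading, and 1 was lower, Cxcl14 (-0.59 ± 0.17, adjusted p = 0.015). Of 25 complement genes, 11 were higher (44.0%), with C5ar2 (3.08 ± 0.23) and C3ar1 (4.04 ± 0.42) besides Itgam, and 2 were lower, the neuronal complement regulators Csmd1 (-1.11 ± 0.14) and Csmd2 (-0.99 ± 0.12). The complement components C4b (-0.26) and C3 (0.64) were not called (adjusted p = 0.26 and 0.22), although C4b was called with the replicate block (adjusted p = 0.037). Of the complement genes, 4 are microglia markers. The part of those cells was not tested.

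In the nucleus, the largest family had more members lower than higher. Of 372 Zfp genes, 102 were lower (27.4%, against 17.3% of all genes) and 37 higher (9.95%, against 18.4%), and the median was -0.15. Zfp365 (-0.87 ± 0.12), Zfp488 (-0.86 ± 0.12) and Zfp462 (-0.75 ± 0.10) were lower, and Zfp36 (1.47 ± 0.16) and Zfp36l1 (0.66 ± 0.10), which encode proteins that destabilise mRNA, and Zfp948 (0.92 ± 0.13) were higher. Histone genes went the other way, with 18 of 52 higher (34.6%, against 18.4%) and 1 lower (1.92%, against 17.3%). H3f3b was at 36459.9, 37438, 32076, 31283 and 32404 normalised counts in Xm samples 1 to 5 and at 58803, 67069, 61900.0, 60521 and 55824 in Xp samples 1 to 5. H3f3b encodes the replacement histone H3.3, and the groups lay far apart (log2 fold change 0.84, SE 0.081, adjusted p = 1.8e-05). H2afz (0.41 ± 0.056) and Hist1h3e (0.92 ± 0.15) were higher and Hist3h2ba was lower (-0.83 ± 0.18). With a mean of at least 50 required, 11 histone genes were higher, since several of them were left out as low. Neuronal (10 of 12) and oligodendrocyte markers (10 of 10) were lower and microglia (24 of 25) and endothelial markers (14 of 14) higher in the same samples. Their part in the Zfp and histone values was not tested.

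Splicing factors called were mostly higher and neuronal RNA-binding proteins called were mostly lower. Of 37 SR proteins and hnRNPs, 13 were higher (35.1%, against 18.4% of all genes), with Srsf5 (0.60 ± 0.074), Hnrnpf (0.74 ± 0.096) and Srsf2 (0.50 ± 0.072) leading, and Hnrnpll was lower (-0.24 ± 0.071, adjusted p = 0.018). Of 30 RNA-binding proteins of neurons and their relatives, 15 were lower (50%, against 17.3%), with Khdrbs2 (-1.08 ± 0.12), Rbfox1 (-1.33 ± 0.16) and Nova1 (-0.90 ± 0.13) leading, and 3 higher, Ptbp3 (1.07 ± 0.095), Ptbp1 and Mbnl1 (0.39 ± 0.094). Of 77 histone and DNA modifying enzymes, 10 were higher, with Kdm6b (0.83 ± 0.10), Eed (0.63 ± 0.12) and Hdac1 (0.34 ± 0.067) leading, and 14 lower, with Tet1 (-0.53 ± 0.079), Sirt2 (-0.67 ± 0.10) and Prmt8 (-1.27 ± 0.23) leading. That list had 6 genes higher when Xm 2, Xm 4, Xp 3 or Xp 4 was left out and 9 lower without Xp 5. Of 19 clock genes, 2 were higher, Per1 (0.41 ± 0.080) and Bhlhe40 (0.88 ± 0.17), and 4 lower, led by Rorb (-0.74 ± 0.15). The part of the neuronal markers, lower in the same samples, and of the microglia markers, higher in them, was not tested.

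Several genes of growth arrest were higher. Of 23 genes of senescence and growth arrest, 10 were higher (43.5%, against 18.4% of all genes), 3 were lower and 10 were not called. Cdkn1a was at 8770.5, 5344, 5182, 4532 and 4094 normalised counts in Xm samples 1 to 5 and at 13848, 15598, 16283, 14652 and 18454 in Xp samples 1 to 5. Cdkn1a encodes the cell cycle inhibitor p21, and its lowest Xp sample exceeded its highest Xm sample (log2 fold change 1.54, SE 0.18, adjusted p = 9.1e-05). Gdf15 was at 253, 204, 165, 104 and 117 normalised counts in Xm samples 1 to 5 and at 796, 1019, 581, 632 and 991 in Xp samples 1 to 5. Gdf15 is a stress-induced hormone, and it did not overlap between groups either (log2 fold change 2.29, SE 0.25, adjusted p = 6.5e-05). Cdkn2b (0.93 ± 0.15) and Trp53 (0.40 ± 0.10) were higher, and Igfbp3 (-0.81 ± 0.20), Bcl2 (-0.27 ± 0.084, adjusted p = 0.022, and 0.053 to 0.058 without Xm 3 or Xp 2) and Ccnd1 (-0.38 ± 0.13, adjusted p = 0.036, and 0.053 to 0.089 without Xm 1, Xm 3, Xm 5, Xp 2, Xp 3, Xp 4 or Xp 5) lower. Of 29 cell cycle genes, 4 were higher, including Cdk6 (2.27 ± 0.20), Mcm3 (0.56 ± 0.10) and Pcna (0.33 ± 0.070), and 2 lower, Cdk4 (-0.23 ± 0.073, adjusted p = 0.027, and 0.052 to 0.072 without Xm 3, Xm 4, Xp 1, Xp 2 or Xp 4) and Ccnd1. The share of cell cycle genes called was 20.7%, against 35.7% of all genes. The part of the microglia and endothelial markers, which were higher in the same samples, in the values of both lists was not tested.

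Developmental signalling pathways were rarely of one direction. Of 26 Notch pathway genes, 14 were higher (53.8%, against 18.4% of all genes), with Rbpj (0.93 ± 0.10), Numb (0.80 ± 0.094) and Notch1 (0.61 ± 0.079) leading, and 3 lower, Dll1 (-0.75 ± 0.16), Hey1 (-0.29 ± 0.10, adjusted p = 0.04, and 0.062 to 0.093 without Xm 1, Xm 3, Xm 4, Xm 5, Xp 2, Xp 3 or Xp 5) and Dll3 (-0.91 ± 0.33, adjusted p = 0.049, and 0.051 to 0.12 without Xm 2, Xm 3, Xm 4, Xm 5, Xp 1, Xp 2 or Xp 5, and 0.052 with TMM rescaling). Of 42 genes of the TGF-beta and BMP pathways, 18 were higher (42.9%), with Tgfbr1 (1.90 ± 0.13), Tgfb1 (2.34 ± 0.27) and Smad3 (0.67 ± 0.083) leading, and 5 lower, with Acvr1c (-1.41 ± 0.24), Smad9 (-0.64 ± 0.18, adjusted p = 0.017) and Bmp7 (-0.38 ± 0.12, adjusted p = 0.025, and 0.063 without Xm 2) leading. The 5 lower genes became 3 without Xm 3, Xm 4, Xm 5, Xp 3 or Xp 5. Wnt ligands, Frizzled receptors and their partners had 10 of 47 members in each direction (21.3%, close to the 18.4% and 17.3% of all genes), with Fzd6 (1.41 ± 0.26), Apcdd1 (0.75 ± 0.15) and Tcf7 (1.00 ± 0.22) higher and Rnf43, Wnt7a (-0.84 ± 0.13) and Wnt7b (-0.84 ± 0.16) lower. Microglia markers (24 of 25) and endothelial markers (14 of 14) were higher in the same samples, and their part was not tested.

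Intracellular signalling families held genes of both directions. Of 41 genes of insulin, IGF and mTOR signalling, 16 were higher (39.0%, against 18.4% of all genes), with the leukocyte PI3-kinase genes Pik3cd (2.04 ± 0.13) and Pik3cg (4.01 ± 0.27) and the receptor Igf1r (0.90 ± 0.11) leading, and 4 lower, with Mlst8 (-0.50 ± 0.10), Sesn3 (-0.41 ± 0.092) and Pik3r2 (-0.26 ± 0.071, adjusted p = 0.013) leading, while Mtor was not called (-0.01). Of 29 genes of protein kinase C, CaM kinases and calcineurin, 15 were lower (51.7%, against 17.3% of all genes), with Camk2a (-1.82 ± 0.25), Prkcz (-0.71 ± 0.10) and Prkcq (-0.71 ± 0.11) leading, and 5 higher, with Prkcd (2.73 ± 0.31), Prkch (2.59 ± 0.35) and Camk1 (0.37 ± 0.072) leading. Of 37 cyclases and phosphodiesterases, 13 were lower (35.1%), with Adcy1, Pde1c (-0.85 ± 0.11) and Adcy2 (-0.86 ± 0.16) leading, and 8 higher, with Adcy7, Pde3b (1.58 ± 0.17) and Pde2a (1.04 ± 0.13) leading. The 13 became 8 without Xm 3. MAP kinases and their phosphatases had 15 of 61 higher, led by Map3k11 (1.06 ± 0.085), Map2k3 (2.07 ± 0.21) and Mapk6 (0.88 ± 0.12), and 6 lower, led by the neuronal JNK3 gene Mapk10 (-0.91 ± 0.12), Dusp15 (-0.71 ± 0.11) and Dusp26 (-0.87 ± 0.14). Microglia markers were higher and neuronal markers lower in the same samples, and their part was not tested.

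Regulators of small GTPases and the Rab family were called often, in both directions, and transporters less so. Of 68 genes of the Arhgap, Arhgef and Dock families, which regulate small GTPases of the cytoskeleton, 29 were higher (42.6%, against 18.4% of all genes), with Arhgap4 (1.86 ± 0.15), Arhgef1 (0.76 ± 0.073) and Arhgap17 (0.69 ± 0.067) leading, and 18 lower, among them Dock3 and Arhgef26 (-0.77 ± 0.11). Of 57 Rab GTPases of vesicle traffic, 15 were higher (26.3%), with Rab8b (0.97 ± 0.10), Rab7b (1.85 ± 0.27) and Rab32 (1.16 ± 0.19) leading, and 21 lower (36.8%, against 17.3% of all genes), with Rab40b (-1.03 ± 0.15), Rab6b (-0.72 ± 0.11) and Rab27b (-0.97 ± 0.15) leading. Of 21 regulators of G-protein signalling, 8 were higher (38.1%), led by Rgs10 (3.51 ± 0.19), Rgs2 (1.21 ± 0.13) and Rgs19 (1.07 ± 0.15), and 7 lower (33.3%), led by Rgs17 (-1.09 ± 0.18), Rgs7 (-1.02 ± 0.17) and Rgs20 (-0.72 ± 0.13). Of 338 solute carriers, 66 were higher and 67 lower, shares of 19.5% and 19.8% that are close to those of all genes. Slc7a7 (2.65 ± 0.19) and the fructose transporter Slc2a5 (5.05 ± 0.37) were higher, and Slc35f1 (-1.0 ± 0.12), the vesicular zinc transporter Slc30a3 (-2.44 ± 0.32) and the bicarbonate transporter Slc4a8 (-0.64 ± 0.091) lower. ABC transporters had 12 of 48 higher (25%, against 18.4% of all genes) and 11 lower (22.9%, against 17.3%), shares not far above those of all genes. Abcb1b (0.99 ± 0.097), Abcc3 (3.42 ± 0.35) and Abca9 (2.74 ± 0.28) led the higher members. Abca8b (-0.83 ± 0.13), Abca2 (-0.69 ± 0.13) and Abca6 (-0.92 ± 0.17) led the lower ones. The same markers moved with these families, and their part was not tested.

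Genes of amyloid processing and tau, which are tied to dementia in old age, were called in both directions. Of 25 genes, 11 were lower (44.0%, against 17.3% of all genes) and 5 higher (20%, near the 18.4% of all genes). Aplp1 was at 64901, 80259, 71329, 71843 and 102933 normalised counts in Xm samples 1 to 5 and at 46203, 50657, 54466, 42059 and 36498 in Xp samples 1 to 5, with no overlap (-0.76 ± 0.14). The beta-secretase gene Bace1 (-0.48 ± 0.071), the adaptor gene Apba2 (-0.92 ± 0.12) and Mapt were lower, while the alpha-secretase genes Adam10 (0.35 ± 0.063) and Adam17 (0.47 ± 0.085) and the gamma-secretase gene Psen2 (0.43 ± 0.13, adjusted p = 0.022, and 0.054 to 0.057 without Xm 3, Xm 4 or Xp 5) were higher. App (-0.21, adjusted p = 0.071) was not called. The 5 higher genes became 2 without Xm 3 or Xm 4. Neuronal markers (10 of 12) and oligodendrocyte markers (10 of 10) were lower in the same samples, and their part in this list was not tested. Of 17 genes of inherited Parkinson and motor neuron disease, 35.3% were called, a share like the 35.7% of all genes. Of these, 4 were higher, with the mouse C9orf72 gene, listed as 3110043O21Rik (0.57 ± 0.076) and Tbk1 (0.37 ± 0.089) among them, and 2 lower, with the parkin gene Park2 at -0.54 ± 0.14.

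On the X chromosome itself, 41.0% of 702 genes were called, 24.8% lower and 16.2% higher, and on the other chromosomes of the nucleus the share called lay between 31.5% (chromosome 8) and 39.3% (chromosome 15). Of 40 X-linked genes of intellectual disability, 18 were lower (45%, against 17.3% of all genes), among them Gria3 (-1.11 ± 0.13) and Nlgn3 (-0.89 ± 0.11), and 5 higher, with Acsl4 (0.57 ± 0.092), Rps6ka3 (0.65 ± 0.13) and Usp9x (0.32 ± 0.076) leading. In the same samples 10 of 12 pan-neuronal markers were lower, and their part in this list was not tested. Genes known to escape inactivation were called at shares near those of all genes. Of 10, 2 were higher, Ddx3x and Pbdc1 (0.30 ± 0.079, adjusted p = 0.011), and 2 lower, the inactivation centre RNAs Ftx (-0.54 ± 0.15, adjusted p = 0.017) and Jpx (-0.40 ± 0.14, adjusted p = 0.045, and 0.055 to 0.11 without Xm 2, Xm 3, Xm 4, Xm 5, Xp 1, Xp 3, Xp 4 or Xp 5, and 0.064 with the replicate block). Ddx3x was at 6469.5, 5296, 6389, 5429 and 5563 normalised counts in Xm samples 1 to 5 and at 8119.7, 7729.8, 9133, 8339 and 8461 in Xp samples 1 to 5, which left no overlap (0.52 ± 0.079). Xist, the RNA that coats the inactive X, was at 8741 ± 376 in Xm and 8558 ± 488 in Xp and was not called (-0.03 ± 0.065, adjusted p = 0.75). Kdm6a (0.09), Kdm5c (0.15) and Eif2s3x (0.03) were not called either.

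Imprinted genes of the autosomes, which are normally used from one parental copy, were also called in both directions. Of 46, 18 were lower (39.1%, against 17.3% of all genes) and 6 higher (13%). Snrpn was at 5091, 4991, 5999, 6092 and 5380.1 normalised counts in Xm samples 1 to 5 and at 3387, 3211, 3528, 4006 and 3085 in Xp samples 1 to 5. Snrpn is expressed from the paternal copy, and its groups did not overlap (log2 fold change -0.68, SE 0.088, adjusted p = 1.2e-04). Rasgrf1 (-1.15 ± 0.17), Nap1l5 (-0.87 ± 0.14), Peg3 (-0.56 ± 0.10) and the maternally expressed RNA Meg3 (-1.06 ± 0.18) were lower, so that genes of either parental expression were lower. Asb4 (2.75 ± 0.39), Kcnq1 and Airn (0.90 ± 0.23) were higher, as was Grb10 (1.18 ± 0.31, adjusted p = 0.013). Neuronal markers (10 of 12) were lower and microglia (24 of 25) and endothelial markers (14 of 14) higher in the same samples. Their part in the imprinted genes was not tested.

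Beyond families, calls varied with the kind and length of the gene. Of 16413 protein-coding genes 40.8% were called, of 2748 lncRNA genes 23% and of 1338 pseudogenes 14.1%. Genes in the longest quintile by span on the chromosome, from 74216 to 2960900 bases, were lower in 31.5% and higher in 18.1%. Genes in the shortest quintile, up to 7945 bases, were lower in 14.2% and higher in 22%. By summed exon length the shares lower went from 11.4% in the shortest to 27.6% in the longest quintile, while the shares higher there were 21.3% and 20.2%. Counts grow with exon length, so that longer genes have more reads and smaller counting error. The part of counting error in these shares, and of length in the values of the gene families, was not tested. Several lists were called at shares close to the 35.7% of all genes, among them kinesins (39.5%), myosins (38.3%), chaperones (30.8%), aminoacyl-tRNA synthetases (35.0%), histones (36.5%), SR proteins and hnRNPs (37.8%), modifying enzymes (31.2%), clock genes (31.6%), MAP kinases (34.4%) and solute carriers (39.3%), so their totals do not stand apart, whatever the direction of their calls.

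**Figure D5:**
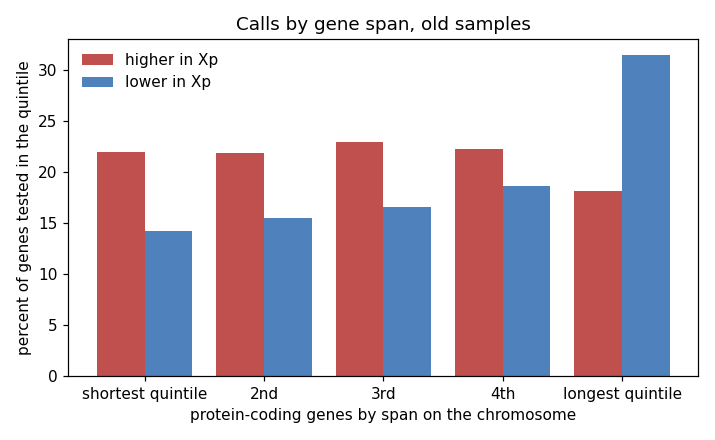
Percent of protein-coding genes called higher (red) and lower (blue) in Xp (vertical axis) in quintiles of span on the chromosome (horizontal axis, shortest to longest), over 5 old samples per group. The share lower grew from 14.2% to 31.5%, and the share higher stayed between 18.1% and 23%.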

How the data were processed

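RNA was sequenced from 5 Xm and 5 Xp pools of sorted hippocampal cells of old mice, using full-length amplified cDNA. According to the study's methods and the submitters' processing notes, the authors checked reads with FastQC, trimmed them, mapped them with STAR 2.5.2b to GRCm38 with Ensembl annotation, counted unique exon hits with featureCounts (Subread 1.5.2) and normalised with DESeq2. The deposited signal consists of read counts scaled by each sample's size factor. Within a tolerance of 0.01, 100% of values in each sample were an integer times that sample's unit, which gave back the reads. The deposited table also holds the authors' log2 fold change and p-values, which were not used. The other 20 samples of the series were not analysed here. Amplified reads carry no molecular identifiers, so counting error understates the true error.

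Xp was compared with Xm by limma 3.58.1 (R 4.3.3), a linear model per gene on log2(value + 1) whose variances were moderated robustly along an intensity trend. The test was two-sided and covered 22348 genes with a mean of at least 10, with Benjamini-Hochberg adjustment across them. On simulated counts for these 22348 genes, the fit recovered 74 of 100 genes changed by a log2 fold change of 1 and 97 of 100 changed by 2, with 6 false calls. The changed genes were drawn from those with a mean of at least 50 reads, so recovery at lower levels was not measured. Genes varied independently in the simulation, without shifts shared between genes. Alternatives were pseudocounts of 0.5 and 10, no filter, a mean of at least 50, TMM rescaling, the sample number as a replicate block, edgeR 4.0.16 and DESeq2 1.42.0 on the recovered reads, and leaving out each sample. The study's methods state that each pool was sorted into Xm and Xp, and the labels number the samples, so equal numbers were taken as one pool. Deviations from the group means correlated between equal numbers at 0.229, 0.119, 0.0972, 0.135 and -0.00807 for pools 1 to 5. The block moved no total by over 1.5 times. P-values measure the spread between these pooled samples.

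The comparison, the 80 gene lists and the 19 marker lists were chosen with earlier results of these data known. Lists were written by symbol or by symbol pattern, so a few pseudogenes and relatives are included, and were described by counts and medians beside those of all genes, without a test of their own. Listed genes that were under the filter or not in the table, such as Cnksr2, Slc32a1 and Cfd, were not tested. Named genes were up to 3 called members of each list in each direction, taken by lowest adjusted p-value, up to 12 called genes in each direction with a log2 fold change under 1 and no overlap, up to 5 with the highest mean, all markers, and members of lists that did not move together, and some genes that this rule names are not reported here. Genes were annotated with GENCODE on GRCm38 (99.7% matched), and promoter windows came from RefSeq on GRCm38.p6. Summaries were made with Python 3.11.15 and pandas 2.3.3.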

Additional observations from a re-analysis of the deposited data

Results flagged for a closer look

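In 112 groups of 5 values (42 genes and 14 list sums in each group), 4 single samples stood apart from the other 4 of their group by a gap of over 0.71 of the group's range, where chance alone gives about 1 in 20. Xm sample 1 was the high sample in 3 of them. Its Nrp2 level was 1321 normalised counts against 1201 to 1236 in the other Xm samples. Its Ndufs1 level was 5255 against 4410 to 4650, and its Cdkn1a level was 8770 against 4094 to 5344. The mitochondrially encoded genes summed to 407929 in Xp sample 3 against 447619 to 456390 in the other Xp samples.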

How the results depend on the processing

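The number of genes called was 7986, and 7971 to 8184 under other pseudocounts, no filter, TMM rescaling, the replicate block and edgeR, 7343 with a mean of at least 50, and 8781 with DESeq2. Leaving out single samples gave 6797 genes (without Xm 4) to 8718 (without Xm 1), with 3573 to 4498 higher and 3207 to 4220 lower, and 1433 to 1777 list members called. Of the 7986 calls, 84.0% to 95.2% were kept when a sample was left out, 94.4% with the replicate block, 97.7% with edgeR and 99.7% with DESeq2, and none changed direction. TMM rescaling shifted the median log2 fold change by 0.0078. With the replicate block, 8184 genes were called. Among the 438 genes named in the text, the block ended the calls of Jpx and Yars and added Npas4 and C4b, and it changed no other of their calls. DESeq2 added Arc (adjusted p = 0.0499) and Npas4 (0.043). Leaving out a sample added App (0.048, without Xp 3), Arc (0.041 without Xm 1 and 0.045 without Xp 3), Eif2ak3 (0.043) and Kdm5c (0.028, both without Xm 1), and Npas4 (0.043, without Xp 4). Of 198 list counts, 47 moved by over 1.5 times under at least 1 setting, and of the 69 that were 10 or more, 6 did so, in the lists of collagens, autophagy, histones, modifying enzymes and cyclases. Each sample had 23465058 reads or more in genes. The colour of the reporter cannot be told apart from the parent of the X.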

Other observations

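The remaining marker lists give values for cell types that the gene families do not cover. Of 7 border macrophage markers, all were higher in Xp, at a median log2 fold change of 3.15, and of 5 erythroid markers, all were higher, at 2.65. Erythroid markers summed to 380.4 to 3229.8 normalised counts in Xm and 5660.4 to 15559.8 in Xp. Of 5 B cell markers, 2 were higher (40.0%, against 18.4% of all genes), Cd79b (1.43 ± 0.26) and Ighm (3.11 ± 0.71). No T cell marker of 7, no neutrophil marker of 4 and no ependymal or choroid plexus marker of 7 was called by limma or edgeR. Before adjustment, 1, 2 and 0 of these had a limma p-value under 0.05, and DESeq2 called 0, 2 and 0.

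Glia other than microglia were lower where called. Of 8 markers of oligodendrocyte precursors, 7 were lower (87.5%, against 17.3% of all genes), at a median of -1.0. Of 12 astrocyte markers, 5 were lower (41.7%) at a median of -0.55, a count that was 2 without Xm 3, Xm 4, Xp 3 or Xp 5 and 8 without Xp 1.

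Markers of neuronal subtypes that were called were lower but for 1. Among all genes, 17.3% were lower and 18.4% higher. Of 8 excitatory markers, 6 were lower, led by Camk2a (-1.82 ± 0.25) and Nrgn (-1.30 ± 0.22), and of 11 inhibitory markers, 5 were lower, or 3 without Xm 3, Xm 4, Xm 5 or Xp 2. Of 7 dentate granule markers, 4 were lower, and of 6 markers of immature neurons, 3 were lower. Of 7 markers of CA3 and CA2, 3 were lower (42.9%), and the mean of their sum was higher in Xp, at 1331 ± 655 in Xm and 1844 ± 497 in Xp, with overlap between groups. Of 6 CA1 markers, 3 were lower and 1 was higher, Man1a (1.76 ± 0.25), and their sum was higher in Xp without overlap, at 2783 ± 239 in Xm and 3265 ± 201 in Xp. Per kilobase of exon the CA1 sums overlapped, at 554 to 669.6 in Xm and 538 to 616 in Xp. In the X-linked Xlr family, 3 of 5 genes were lower (60.0%), Xlr3b (-3.13 ± 0.26), Xlr3a (-1.90 ± 0.24) and Xlr4b (-1.07 ± 0.33, adjusted p = 0.023, and 0.051 to 0.055 without Xm 3 or Xm 4), and reads could be split among these near-identical copies.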
